A study of Drosophila melanogaster with 60 samples.

Results

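Peaks of H3K4me3 and RNA polymerase II (RNAPolII) that lie outside the large chromosome arms are described here: those of the Y chromosome, of scaffolds assembled but not placed on a chromosome, of the ribosomal DNA (rDNA) sequence and of the mitochondrial genome. A peak was taken when its sequence was Y or was not 2L, 2R, 3L, 3R, 4 or X and its mean normalized count over the 30 libraries of an antibody was at least 10. This gave 52 of the 14894 H3K4me3 peaks and 348 of the 21113 RNAPolII peaks. A further 12 H3K4me3 peaks and 9 RNAPolII peaks of these sequences lay under that mean and were left out.

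The series mapped both proteins by CUT&RUN, in which an antibody directs a nuclease to chromatin and the released fragments are sequenced, in dissociated brains of male Drosophila melanogaster. The Or47b mutant was w+/Y; Or47b2/3;+/+, without the odorant receptor Or47b, and the Or67d mutant was w+/Y; +/+; Or67dGAL4/GAL4, without the receptor Or67d. Both receptors detect pheromones. The fru mutant was w+/Y; +/+; fruLexA/4-40, for the courtship regulator fruitless, and the dsx mutant was w-/Y; +/+; dsxf00683-d07058/f01649-d09625, for the sex regulator doublesex. Canton-S (CS) was the wild type. Males of each genotype were housed singly (SH) or in a group (GH), with 3 biological replicates of each genotype and housing per antibody, 15 brains in an H3K4me3 library and 30 in an RNAPolII library, and 75-bp paired reads. A mutant stock can carry another strain background, and another Y chromosome, than CS does, so genotype and strain background cannot be told apart in any comparison with CS below.

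The Drosophila Y is almost entirely heterochromatic. Its few protein-coding genes, such as the axonemal dynein heavy chain genes kl-3 and kl-5, act in sperm formation, and its Su(Ste) repeats are a source of piRNAs that silence the X-linked Stellate repeats in the male germline. The unplaced scaffolds are mostly pieces of pericentromeric and Y heterochromatin, rich in transposons and satellites, where the copy number of a repeat can differ between strains. The rDNA repeats encode the ribosomal RNAs and are transcribed by RNA polymerase I, and the mitochondrial genome is transcribed by a polymerase of its own and carries no histones. Because many of these sequences have near-identical copies, and no source used here says whether reads with several matches were kept, the share of reads that belongs to 1 copy is uncertain for every peak on them.

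The 348 RNAPolII peaks lay on 215 sequences: 67 on the Y, 34 on scaffolds whose name assigns them to a chromosome, 235 on scaffolds with no such name, 8 on rDNA and 4 on the mitochondrial genome. The 52 H3K4me3 peaks lay on 41 sequences, with 4 on the Y, 7 on chromosome-assigned scaffolds, 37 on unplaced scaffolds, 1 on rDNA and 3 on the mitochondrial genome. They were weak peaks: the median mean value was 24.6 normalized counts with RNAPolII, against 97.6 over all tested peaks, and 27.4 with H3K4me3, against 33.5. They were also short with RNAPolII, at a median of 736 bp, and per kilobase their median was 34.4 normalized counts, against 40.6 for the peaks of 2L, 2R, 3L, 3R, 4 and X. With H3K4me3 the median per kilobase was 36.8, against 37.0 for those peaks, so there they were hardly weaker for their length. The mitochondrial peaks were the strongest of the set, with means of 741 to 7402 with RNAPolII, and the strongest H3K4me3 peak, 211000022280687:1-2436 on an unplaced scaffold, had a mean of 1204. Close to the limit, 211000022279392:649-908 (10.31) and XY_mapped_Scaffold_7_D1574:12385-12752 (10.22) were the RNAPolII peaks just inside, and Y:2480403-2480738 (9.812) and 211000022279432:298-549 (9.782) those just outside. With H3K4me3 these were 211000022279147:1468-1807 (10.7) and 3Cen_mapped_Scaffold_50_D1686:21099-21422 (10.19) inside, and Y:88848-89527 (9.893) and Y:917135-917931 (9.854) outside.

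Between 2309386 and 9269525 reads fell in peaks per H3K4me3 library and between 3007711 and 6459322 per RNAPolII library. Replicates scattered more at these peaks than elsewhere, with a median within-group SD of 0.427 on the log2 scale with RNAPolII, against 0.24 over all peaks, and of 0.534 with H3K4me3, against 0.361. All 9 neuronal marker genes looked up had a peak with both antibodies. Of 10 markers of the testis germline, 2 had an H3K4me3 peak, with summed values of 17.98 to 60.39 per library, against 4520 to 6909 for the neuronal markers. By genotype those 2 summed to 21.86 to 49 in Or47b, 22.18 to 35.23 in Or67d, 18.02 to 44.89 in fru and 17.98 to 44.83 in dsx brains, against 39.06 to 60.39 in CS brains, and with RNAPolII 7 of the 10 had a peak. These 7 summed to 1076 to 1373 in Or47b, 1083 to 1374 in Or67d, 1196 to 1298 in fru and 1225 to 1362 in dsx brains, against 1173 to 1318 in CS brains, where the neuronal markers summed to 5567 to 9870 per library. The part of such cells in the results below was not tested. At the mutated loci, RNAPolII over dsx summed to 246.9 to 316.8 in dsx brains, against 1361 to 1445 in CS brains, and RNAPolII over fru to 2550 to 2903 in fru brains, against 3282 to 3742 in CS brains. Or47b GH 3, Or47b SH 3 and Or67d GH 3 stood apart among the RNAPolII libraries: their values differed most from those of the other 2 libraries of their group (SD of the log2 difference 0.442, 0.464 and 0.469, against at most 0.426 in any other library), and their mitochondrial signal was high. Results that rest on them are given with and without them.

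These peaks differed between genotypes far more often than the tables they come from. In a test of any difference among the 5 genotypes (limma on log2 of the value plus 1, threshold 0.05 after Benjamini-Hochberg adjustment over all tested peaks), 164 of the 348 RNAPolII peaks were called (47.1%), against 2.95% of all 21076 tested RNAPolII peaks. With H3K4me3, 43 of 52 were called (82.7%), against 17.2% of all 14513 tested. No class was left out: with RNAPolII the test called 28 of 67 Y peaks, 14 of 34 on chromosome-assigned scaffolds, 113 of 235 on unplaced scaffolds, 5 of 8 on rDNA and 4 of 4 on the mitochondrial genome. Less of a sequence in the DNA and less RNAPolII on each copy cannot be told apart from these values, since no input DNA was analysed here.

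Each mutant was then set against CS over both housings, and the 4 comparisons share the 6 CS libraries. With RNAPolII, Or47b brains had 58 called peaks (30 higher and 28 lower), or 16.7%, against 0.56% of all peaks (0.304% higher and 0.256% lower). Or67d brains had 75 (43 higher and 32 lower), or 21.6%, against 1.08% (0.508% and 0.569%). In fru brains 57 were called (46 higher and 11 lower), or 16.4%, against 1.04% (0.56% and 0.484%), and in dsx brains 69 (60 higher and 9 lower), or 19.8%, against 1.84% (0.954% and 0.883%). The 2 receptor mutants thus had similar numbers in both directions, while most calls in fru and dsx brains were higher. The median log2 change over the 348 peaks was 0.21 in Or47b, 0.17 in Or67d, 0.28 in fru and 0.35 in dsx brains, against 0.005 to 0.011 over all peaks. Without the 3 libraries that stood apart the counts were 64 in Or47b (38 higher), 97 in Or67d (61 higher), 71 in fru (57 higher) and 91 in dsx brains (82 higher).

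With H3K4me3 the balance lay on the lower side in the receptor mutants. Or47b brains had 17 called peaks (4 higher and 13 lower), or 32.7%, against 0.806% of all peaks (0.427% higher and 0.379% lower). Or67d brains had 29 (3 higher and 26 lower), or 55.8%, but there 30% of all H3K4me3 peaks were called (17.5% higher and 12.5% lower), so this share lies closest to its background. In fru brains 12 peaks were called (7 higher and 5 lower), or 23.1%, against 2.2% (1.26% and 0.944%), and in dsx brains 14 (6 higher and 8 lower), or 26.9%, against 5.4% (3.42% and 1.98%). A term for how far strong and weak peaks lay apart in each library moved the H3K4me3 splits to 7 higher and 13 lower in Or47b, 4 and 12 in Or67d and 7 and 5 in dsx brains.

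**Figure D1:**
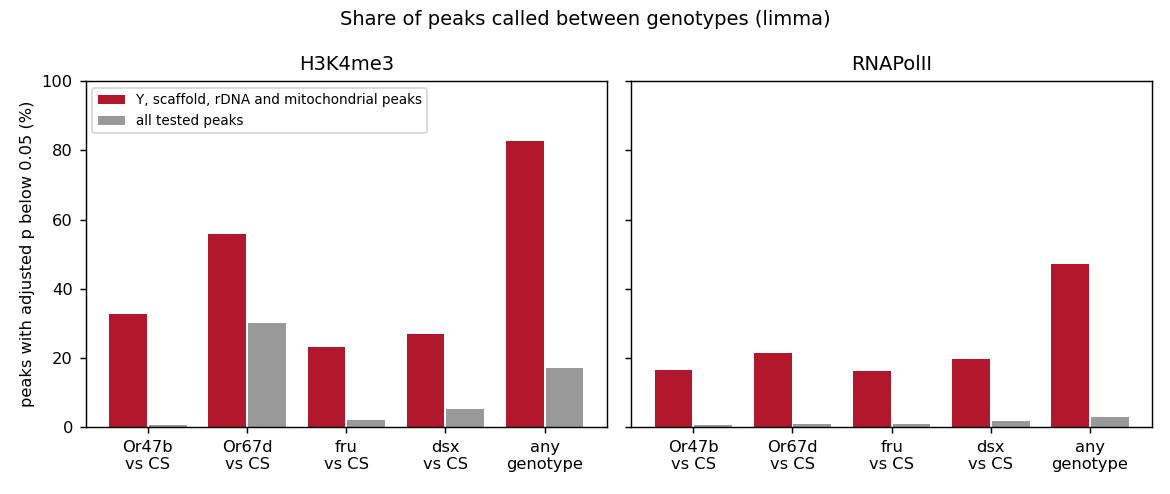
Share of peaks with an adjusted p under 0.05 in limma (y axis, percent) for each mutant against CS and for any difference among genotypes (x axis), H3K4me3 on the left and RNAPolII on the right; red bars are the Y, scaffold, rDNA and mitochondrial peaks and grey bars all tested peaks. The red bars reach 82.7% and 47.1% for any genotype, against 17.2% and 2.95%, and only the H3K4me3 comparison of Or67d with CS has a grey bar as high as 30%.

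At a set of peaks the Or47b and Or67d libraries lay apart from those of the 3 other genotypes. These counts were made after the values had been seen. All 18 RNAPolII peaks of the whole table at which the 12 receptor mutant libraries lay below the 18 other libraries (0.0854% of all peaks) belonged to these sequences, and so did all 15 at which they lay above (0.0712%). Without the 3 libraries that stood apart there were 18 lower (0.0854%) and 17 higher peaks (0.0807%), again all on these sequences. With H3K4me3 both peaks at which the 12 libraries lay below the others (0.0138%), on 211000022279266 and 211000022280742, belonged to them, and no peak lay above; no adjusted test was made of this grouping of genotypes.

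**Figure D2:**
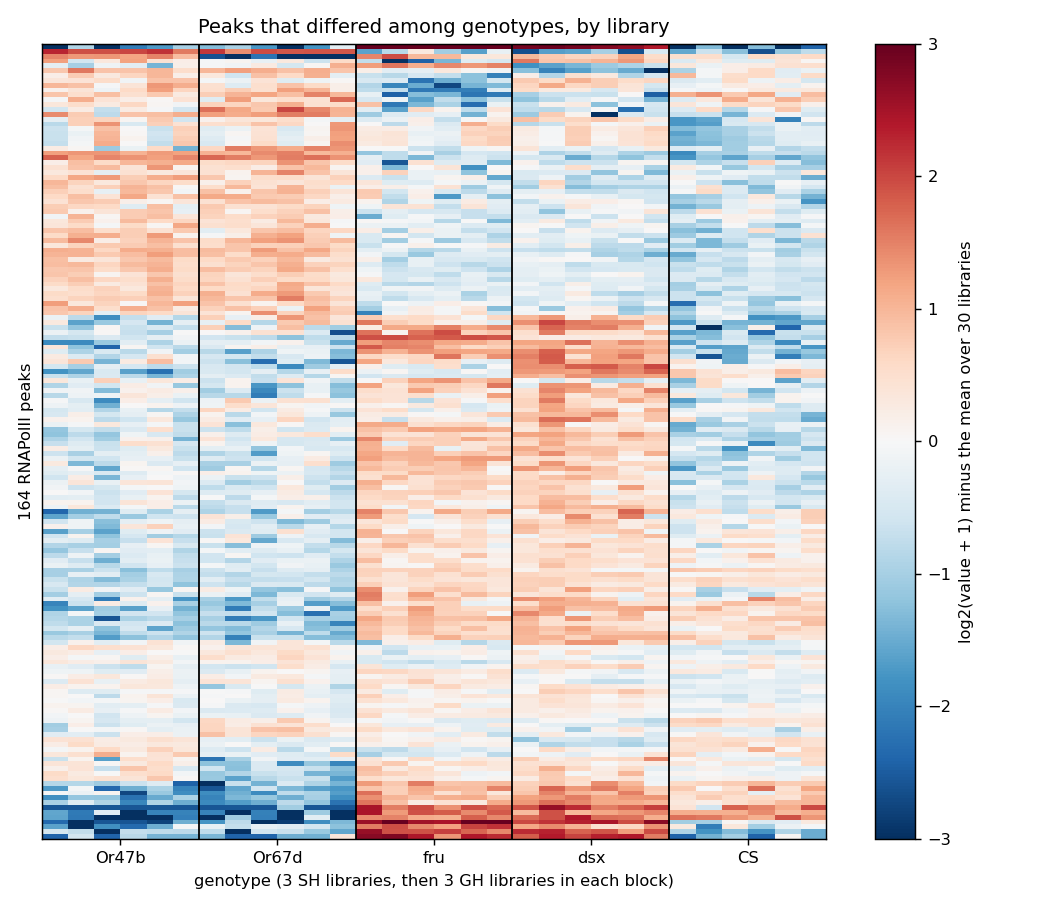
RNAPolII values of the 164 peaks called for any difference among genotypes (rows, ordered by average-linkage clustering) in the 30 libraries (columns, 3 SH then 3 GH in each genotype block), as log2 of the value plus 1 minus the mean of the peak over all libraries. The rows were chosen for differing among genotypes; the Or47b and Or67d blocks share most of their colours, the fru and dsx blocks share many, and SH and GH libraries of a block look alike.

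Among the peaks lower in both receptor mutants, the strongest was Y_mapped_Scaffold_18_D1698:25973-28207, on a scaffold named for the Y. It had 226, 292 and 380 normalized RNAPolII counts in Or47b brains (lowest, median and highest of 6 libraries, as in all such triples below), 296, 341 and 447 in Or67d brains, 700, 729 and 811 in fru brains, 726, 827 and 925 in dsx brains, and 736, 797 and 902 in CS brains. The log2 change was -1.41 ± 0.09 (SE) in Or47b (limma adjusted p = 6e-12) and -1.18 ± 0.09 in Or67d brains (limma adjusted p = 1.4e-10), and fru (-0.11) and dsx (0.05) were not called. Every receptor mutant library lay under every other library. Another scaffold named for the Y, Y_mapped_Scaffold_9_D1573:15415-19322, had 53.1, 71.7 and 88.8 in Or47b and 68.8, 76.4 and 91.9 in Or67d brains, against 149, 165 and 194 in CS brains. Summed over the 34 RNAPolII peaks on chromosome-assigned scaffolds, the values were 989.9, 1170 and 1383 in Or47b, 1089, 1291 and 1483 in Or67d, 1751, 1843 and 2045 in fru and 1921, 2104 and 2405 in dsx brains, against 1708, 1834 and 1996 in CS brains. These sums weigh the strong peaks most: over the 34 peaks the median log2 change was 0.23 in Or47b and 0.18 in Or67d brains, where 5 peaks were lower in each and 0 and 2 were higher. Most of the lower peaks lay on Y_mapped_Scaffold_18_D1698.

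Several unplaced scaffolds were near 0 in the receptor mutants. The peak 211000022280116:494-1034 had 0, 0.44 and 1.78 in Or47b and 0, 0.505 and 5.74 in Or67d brains, while fru brains had 16.4, 21.5 and 27.9, dsx brains 16.7, 26 and 43.5, and CS brains 16.6, 22 and 30.2. The change was -3.98 ± 0.40 in Or47b (limma adjusted p = 5.4e-08) and -3.58 ± 0.40 in Or67d brains (limma adjusted p = 2.3e-07). At 211000022278573:650-985 all 6 Or47b libraries were at 0. Set against a floor of 3 reads per library (2.92 normalized counts), the CS mean of 13.2 makes Or47b at least 4.52-fold lower; the floor covers counting error only. All 3 RNAPolII peaks of scaffold 211000022278549 were lower in both mutants, at -1.19, -2.95 and -1.84 in Or47b and -1.50, -3.47 and -1.88 in Or67d brains. The scaffold 211000022279266 was lower with both antibodies. Its RNAPolII peak at 63-1145 had 14.8, 28 and 36.8 in Or47b and 17.7, 26.5 and 35.4 in Or67d brains, against 94.9, 106 and 145 in CS brains. Its H3K4me3 peak at 101-1116 had 3.03, 5.84 and 9.8 in Or47b and 1.2, 5.09 and 8.45 in Or67d brains, against 24.5, 40.9 and 78.4 in CS brains.

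Other unplaced scaffolds were higher in both receptor mutants. The strongest, 211000022280138:32-2642, had 423, 506 and 612 in Or47b and 405, 508 and 635 in Or67d brains, while fru brains had 151, 196 and 263, dsx brains 192, 211 and 251, and CS brains 152, 179 and 221. The change was 1.44 ± 0.12 in Or47b (limma adjusted p = 5e-10) and 1.47 ± 0.12 in Or67d brains (limma adjusted p = 1.4e-10). The peak 211000022279901:15-1107 had 158, 185 and 195 in Or47b and 153, 161 and 223 in Or67d brains, against 19.7, 40.9 and 47.6 in CS brains (log2 change 2.26 and 2.20). With H3K4me3 the same scaffold was higher too, at 1.50 ± 0.28 in Or47b (limma adjusted p = 0.0002) and 0.88 ± 0.28 in Or67d brains (limma adjusted p = 0.014). The Or67d call was lost without CS GH 2 (0.0549) and with edgeR on recovered reads (0.0746). The edgeR fit also lacked CS GH 2, so these losses are not separate evidence. The peak 211000022279974:57-1013 had 60.7, 70.4 and 91.5 in Or47b and 65.6, 77.4 and 88.4 in Or67d brains, against 6.95, 9.54 and 12.5 in CS brains (log2 change 2.79 and 2.89).

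On the Y itself, no peak over a protein-coding gene was called against CS. Of 67 RNAPolII peaks on the Y, 19 lay over kl-5 (5 peaks), kl-3 (3), PRY (2), Ppr-Y (1), WDY (4) or ORY (4), and in no mutant was any of the 19 called against CS by limma, a count close to the share called over all peaks (0.56% to 1.84%). The test of any difference among genotypes called 2 of them, both over WDY. At WDY, Y:2481679-2482335 averaged 29.2 ± 9.45 in Or47b, 25.5 ± 6.45 in Or67d, 14.4 ± 7.47 in fru and 15.5 ± 5.45 in dsx brains, against 12 ± 5.41 in CS brains (SD, n = 6 each; log2 change against CS 1.26 in Or47b, limma adjusted p = 0.079). The highest Y peak, Y:88808-93734 over kl-5, had 118, 138 and 158 in Or47b, 98.9, 130 and 173 in Or67d, 132, 154 and 176 in fru and 135, 156 and 180 in dsx brains, against 119, 148 and 165 in CS brains. The 5 ranges overlap, and the changes were -0.06, -0.15, 0.10 and 0.14, each ± 0.11. The other 18 peaks over these genes were low, from a mean of 10.8, and overlapping ranges were the rule.

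Peaks with no gene carried most of the Y's differences. Of 36 such peaks, 8 were called in Or47b, 9 in Or67d, 5 in fru and 4 in dsx brains, and 21 for any difference among genotypes, against 0.56%, 1.08%, 1.04%, 1.84% and 2.95% of all peaks. The peak Y:830982-834525 had 80.7, 100 and 115 in Or47b, 99, 115 and 183 in Or67d, 35.2, 47.2 and 55.4 in fru, and 40.4, 45.7 and 65.3 in dsx brains, against 25.6, 38.9 and 43.4 in CS brains. It was higher by 1.42 ± 0.16 in Or47b (limma adjusted p = 3.6e-07) and by 1.74 ± 0.16 in Or67d brains (limma adjusted p = 2.7e-09), with no overlap with any other genotype. Y:1100827-1104832 likewise had 134, 195 and 227 in Or47b and 156, 185 and 212 in Or67d brains, against 77, 90.1 and 102 in CS brains, though the highest dsx library (138) reached into the Or47b range. Y:329191-331492 was at 50.6, 65.6 and 74.5 in Or47b and 57.2, 65.1 and 70.9 in Or67d brains, against 15, 19.7 and 34.3 in CS brains. It was also called in fru brains, at 24.5, 38.7 and 46.7 (log2 change 0.79, limma adjusted p = 0.0061). Lower in both receptor mutants was Y:885029-885719, with 2.04, 7.96 and 11.4 in Or47b and 0, 6.4 and 11.2 in Or67d brains, against 23.2, 26.5 and 31.2 in CS brains. The Y therefore held calls in both directions in each receptor mutant.

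The Su(Ste) copies, of which 6 had a RNAPolII peak, were split. Or47b brains had 4 called, 3 lower and 1 higher, Or67d brains 1 lower, and fru and dsx brains none by limma. In the same order of mutants, 0.56%, 1.08%, 1.04% and 1.84% of all RNAPolII peaks were called. Of the 67 Y peaks, 17.9%, 14.9%, 7.46% and 7.46% were called. Su(Ste):CR42407, at Y:893567-894742, had 1.35, 3.01 and 10.6 in Or47b and 1.04, 2.98 and 7.07 in Or67d brains, while fru brains had 18.6, 22.2 and 32.6, dsx brains 18.9, 27.2 and 39.4, and CS brains 11, 17.9 and 37.4. The change was -2.19 ± 0.34 in Or47b (limma adjusted p = 0.0002) and -2.34 ± 0.34 in Or67d brains (limma adjusted p = 3.9e-05). Su(Ste):CR42430 (-0.76) and Su(Ste):CR42426 (-1.37) were lower in Or47b brains, where Su(Ste):CR42425 was higher (1.15, limma adjusted p = 0.023). Su(Ste):CR42432 and Su(Ste):CR42412 were called in no mutant, with changes of 0.10 to 0.66. Su(Ste) copies are near-identical, so the split of reads among them is uncertain. Of 6 peaks over other genes with no protein product, 1 was called, in dsx brains.

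Some peaks were lower in Or67d brains and were not called in Or47b brains. At 211000022280659:10245-11818, Or67d brains had 0, 0.478 and 3.03, while Or47b brains had 34.7, 45.4 and 51.7, fru brains 22.8, 35.7 and 72, dsx brains 26.2, 30.2 and 41.5, and CS brains 12, 25.8 and 27.1. The change in Or67d was -3.81 ± 0.27 (limma adjusted p = 3e-11). On the Y, Y:924589-925554 had 7.07, 12.4 and 22.2 in Or67d brains, against 29, 39.3 and 47 in CS brains (log2 change -1.58, limma adjusted p = 3.2e-07), and its change in Or47b was 0.05. In the whole table, all 6 Or67d libraries lay under every other RNAPolII library at 27 peaks (0.128%), of which 4 were on these sequences. They lay above at 19 (0.0901%), of which 1 was. On the Y, 3 of the 4 H3K4me3 peaks were lower in Or67d brains, and none was called in Or47b brains. Over all H3K4me3 peaks, 12.5% were lower in Or67d and 0.379% in Or47b brains, so the call rates of these comparisons were unlike. Y:956888-957938 had 4.58, 10.3 and 15.8 in Or67d brains, against 16.1, 23.8 and 29.2 in CS brains. Y:3017770-3018782 had 14.8, 25.7 and 35.5, against 40.6, 45.7 and 50.3 in CS brains. With a term for how far strong and weak peaks lay apart both calls were lost (limma adjusted p = 0.42 and 0.485), and the second was lost with quantile scaling as well. At Y:887174-887776 there were 1.83, 6.35 and 8.45 in Or67d brains, against 6.77, 15.6 and 28.8 in CS brains, so these ranges overlapped (log2 change -1.40, limma adjusted p = 0.0041). The change there in Or47b was -1.19 (limma adjusted p = 0.125), and the difference between the receptor mutants was not tested. Y:3017770-3018782 was also lower in dsx brains (18.8, 23.5 and 36.5; log2 change -0.85, limma adjusted p = 0.031), a call that was lost in 7 of the 30 fits that left out 1 library and under both of those settings.

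In fru brains a strong peak of an unplaced scaffold changed with both antibodies. The RNAPolII peak 211000022280519:723-3401 had 700, 759 and 799 in fru brains and 239, 251 and 284 in dsx brains, while Or47b brains had 124, 142 and 190, Or67d brains 86.2, 118 and 137, and CS brains 84.1, 103 and 136. The change was 2.83 ± 0.11 in fru (limma adjusted p = 4.1e-18) and 1.27 ± 0.11 in dsx brains (limma adjusted p = 3.8e-10). Its H3K4me3 peak, at 778-3289, had 425, 485 and 536 in fru and 116, 131 and 146 in dsx brains, against 28.2, 40.4 and 60.8 in CS brains. That change was 3.54 ± 0.15 in fru (limma adjusted p = 7.8e-35) and 1.67 ± 0.15 in dsx brains (limma adjusted p = 1.4e-15). The 3 levels, fru over dsx over the rest, did not overlap with either antibody.

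A group of peaks was higher in both fru and dsx brains than in CS brains, and some of these were near 0 in CS brains. The largest RNAPolII change of the set in fru and in dsx brains was of this kind: 211000022278208:696-2898 had 91.2, 106 and 120 RNAPolII counts in fru and 52.5, 69.4 and 76.7 in dsx brains, against 0, 1.71 and 4.4 in Or47b, 0, 2.57 and 7.07 in Or67d and 0, 0.452 and 3.12 in CS brains. The change was 5.89 ± 0.44 in fru (limma adjusted p = 1.3e-10) and 5.25 ± 0.44 in dsx brains (limma adjusted p = 5.3e-10). Every Or47b, Or67d and CS library at this peak lay under the limit on the mean by which peaks were taken. It was thus taken only through its fru and dsx values. A peak near 0 in CS brains could be taken only where other genotypes were higher, so the limit itself favours such changes. The peak 211000022279774:686-1727 had 27.1, 38.4 and 62.7 in fru and 23.7, 38.4 and 51.2 in dsx brains, against 2, 2.96 and 4.63 in CS brains. On the Y, Y:989201-989761 had 23.9, 30.8 and 37.2 in fru and 26.8, 30.5 and 42.5 in dsx brains, against 2.75, 7.12 and 10.8 in CS brains (log2 change 2.15 and 2.18). Y:1425589-1426590 was higher by 1.73 in fru and 1.18 in dsx brains, and the stronger Y:955844-958739 by 0.72 and 0.73.

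Of the 11 lower RNAPolII calls in fru brains, 4 lay on XY_mapped_Scaffold_7_D1574, which has 6 peaks, at log2 changes of -1.38, -1.63, -1.49 and -2.43. The call at its peak 5043-6156 was lost without CS SH 1 or without fru GH 3 (limma adjusted p = 0.0607). At 34497-35400, fru brains had 2.48, 4.71 and 14.9 and dsx brains 2.39, 10.8 and 17.8, against 13.7, 36.3 and 46.1 in CS brains, so that the ranges overlapped; dsx brains were called there too (-1.73, limma adjusted p = 0.0024). At 23187-23992, fru brains had 1.03, 3.99 and 6.38, against 10.1, 12.8 and 15.2 in CS brains, with no overlap. In the whole RNAPolII table, all fru libraries lay under all others at 15 peaks (0.0712%), of which 2 were on these sequences. They lay above at 14 (0.0664%), of which 4 were. With H3K4me3 they lay above at 15 (0.103%), of which 2 were. A stronger peak on an unplaced scaffold, 211000022280095:109-2602, had 89, 107 and 114 in fru brains, against 125, 164 and 193 in CS brains (log2 change -0.62, limma adjusted p = 0.0012).

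In dsx brains the largest H3K4me3 change lay on 211000022278942:1-2051, an unplaced scaffold. It had 1177, 1426 and 1589 normalized counts in dsx brains, while Or47b brains had 134, 175 and 246, Or67d brains 134, 158 and 182, fru brains 189, 254 and 282, and CS brains 198, 243 and 302. The change was 2.49 ± 0.11 (limma adjusted p = 5.8e-33), and no dsx library came near the others. The strongest H3K4me3 peak of the set moved the other way: 211000022280687:1-2436 had 521, 605 and 706 in dsx brains, 816, 1017 and 1214 in fru brains, 1060, 1178 and 1469 in Or67d and 1267, 1723 and 1861 in Or47b brains, against 1351, 1512 and 2094 in CS brains. It fell by 1.36 ± 0.10 in dsx (limma adjusted p = 2.8e-20), by 0.63 in fru and by 0.39 in Or67d brains, and Or47b (0.03) was not called. RNAPolII on the first 418 bases of this scaffold had changes of -1.21 in dsx, -0.38 in fru (not called), -0.89 in Or67d and -0.14 in Or47b brains (not called).

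A pair of scaffolds was on opposite sides in different mutants. At 211000022279810 RNAPolII had 25.9, 41.3 and 90.6 in Or47b and 290, 325 and 421 in dsx brains, against 142, 184 and 238 in CS brains. The change was -2.0 ± 0.20 in Or47b (limma adjusted p = 8.4e-08) and 0.87 ± 0.20 in dsx brains (limma adjusted p = 0.016), and with H3K4me3 it was -1.84 and 1.57. At 211000022280492:410-948 H3K4me3 had 211, 220 and 298 in fru and 20.7, 31.4 and 47.1 in dsx brains, against 85.9, 101 and 119 in CS brains, a change of 1.22 in fru and -1.61 in dsx brains. RNAPolII on that scaffold changed by 1.11 and -1.50. In the whole tables, all dsx libraries lay above all others at 16 H3K4me3 peaks (0.11%) and 15 RNAPolII peaks (0.0712%). Of these, 3 and 3 were on these sequences. They lay under all others at 11 (0.0758%) and 41 (0.195%), of which 1 and 1 were. All Or47b libraries lay under all others at 10 H3K4me3 peaks (0.0689%), of which 3 were.

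**Figure D3:**
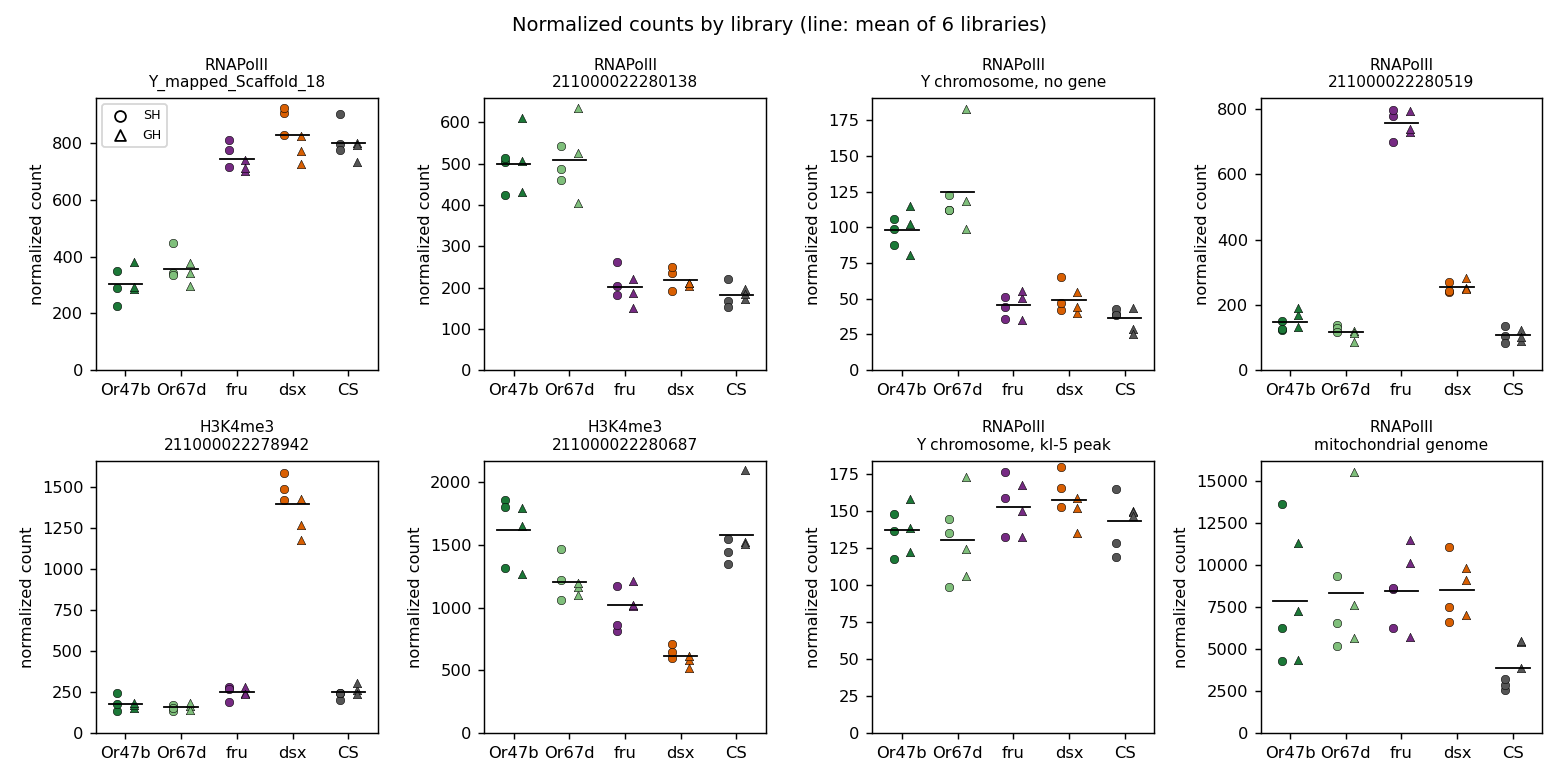
Normalized counts (y axis, linear and from 0) of 8 peaks in each of the 30 libraries, by genotype (x axis), with SH as circles, GH as triangles and the mean of 6 libraries as a line. The first 3 panels separate Or47b and Or67d from the other genotypes, the fourth has fru above dsx above the rest, the next pair of H3K4me3 panels has dsx alone above or below, the kl-5 panel has overlapping groups, and the mitochondrial panel has CS lowest.

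One scaffold, Y_mapped_Scaffold_18_D1698, varied along its own length. Its first H3K4me3 peak, at 1363-1811, had 0, 0 and 1.09 in Or47b, 0, 1.27 and 2.75 in Or67d, 32.2, 51.4 and 59 in fru and 19.7, 31.4 and 38.6 in dsx brains, against 2.01, 4.43 and 8.46 in CS brains. It was lower in Or47b (-2.34) and Or67d (-1.41) and higher in fru (3.11) and dsx brains (2.41). The Or67d call there was lost with quantile scaling and with the term for how far strong and weak peaks lay apart, and reached -0.44 at the least (limma adjusted p up to 0.468). At 11282-12198, Or47b (-1.14) and Or67d (-0.51) were lower and fru (0.17) and dsx (-0.13) were not called. At 13439-14795, Or47b was lower (-1.26) and dsx higher (1.43). In the whole table, CS lay above every other library at 4 H3K4me3 peaks (0.0276%), and only that at 26019-28220 was of the set. It had 80.2, 131 and 168 in Or47b and 211, 261 and 288 in Or67d brains. There were 209, 293 and 354 in fru and 256, 292 and 337 in dsx brains, against 413, 519 and 643 in CS brains. The log2 changes were -2.06, -1.0, -0.84 and -0.81 in the same order of mutants. RNAPolII over nearly the same bases was not called in fru and dsx brains, as given above, so the antibodies parted at this peak. With RNAPolII the 13426-14943 peak was higher in dsx (0.62) and lower in fru brains (-1.02), where the 1356-1761 peak was higher (3.21). Calls of both directions thus stood on this 1 scaffold in fru and dsx brains with each antibody.

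Where both antibodies had a peak, their changes were correlated, though not every pair moved the same way. All 52 H3K4me3 peaks overlapped a RNAPolII peak of the set by at least 1 base, in 54 pairs, and 52 of the 348 RNAPolII peaks (14.9%) overlapped one with H3K4me3. Over the 54 pairs the log2 changes of the antibodies had a Pearson correlation of 0.919 in Or47b, 0.799 in Or67d, 0.879 in fru and 0.827 in dsx brains (Spearman 0.824, 0.744, 0.754 and 0.798). The pairs share stocks and sequence copies, although the libraries of the antibodies are separate, and no p is given. Both antibodies called 15 pairs in Or47b, 16 in Or67d, 9 in fru and 8 in dsx brains, and in each of these the signs were equal. Among the other pairs some had opposite signs, as did every pair on the Y in dsx brains. There H3K4me3 at Y:956888-957938 changed by -0.11 and RNAPolII at Y:955844-958739 by 0.73. H3K4me3 at Y:3017770-3018782 changed by -0.85 and the RNAPolII peak over it by 0.11.

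**Figure D4:**
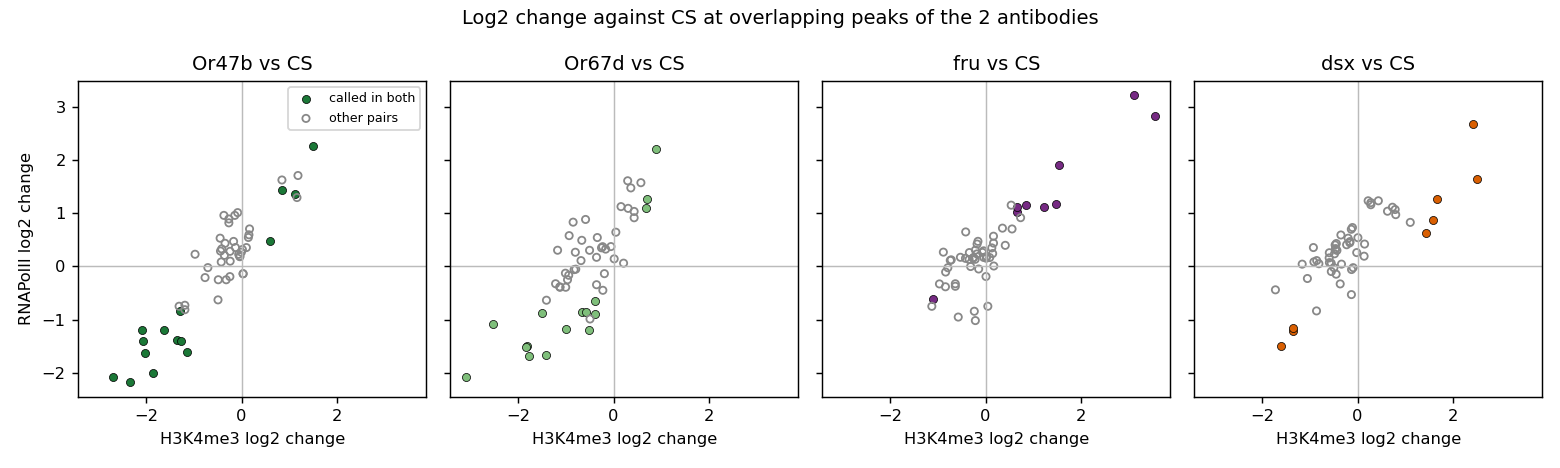
Log2 change against CS with H3K4me3 (x axis) and with RNAPolII (y axis) at 54 pairs of overlapping peaks, 1 panel per mutant; filled points were called with both antibodies and open points are the other pairs. Filled points lie in the lower left and upper right parts of every panel.

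Among rDNA peaks, the largest RNAPolII changes in fru and in dsx brains lay over 28S pseudogenes. Of the 8 RNAPolII peaks on rDNA, 6 lay over any gene. Not every called peak lay over a pseudogene, since 1 given below lay over a 28S gene. At rDNA:36212-37496, over 28SrRNA-Psi:CR45851, RNAPolII had 94.3, 112 and 118 in fru and 48.7, 64.6 and 79.4 in dsx brains, while Or47b brains had 29.6, 36.4 and 42.6, Or67d brains 30.8, 33.8 and 57.4, and CS brains 20.8, 27.5 and 44.7. The change was 1.90 ± 0.16 in fru (limma adjusted p = 2.1e-09) and 1.11 ± 0.16 in dsx brains (limma adjusted p = 3.7e-05), and the H3K4me3 peak there was higher in fru brains (1.54, limma adjusted p = 0.0035). At rDNA:19902-21161, over 28SrRNA-Psi:CR40596, dsx brains had 42.7, 54 and 75.1, against 9.94, 17.9 and 27.8 in CS brains, a change of 1.55 ± 0.23 (limma adjusted p = 5.9e-05). The rDNA peaks at 2398-3264 (1.05) and 4338-7686 (0.75) were higher in dsx brains as well. That at 50776-53591 was higher in fru brains (0.67). This call was lost without fru SH 3 and with the term for how far strong and weak peaks lay apart. Of 3 peaks over the 28S gene 28SrRNA:CR45844, only rDNA:74818-75107 was called, in Or67d brains (18.2, 27.4 and 45.6, against 4.63, 11.2 and 15.6 in CS brains; log2 change 1.53, limma adjusted p = 0.011). Summed over the 8 peaks, RNAPolII ranged over 303.8 to 371.5 in Or47b, 330.8 to 413.1 in Or67d, 361 to 454.2 in fru and 393.4 to 484.9 in dsx brains, against 249.1 to 306.8 in CS brains, so that only Or47b touched CS.

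The mitochondrial genome gave 4 RNAPolII peaks, and in them CS was lowest. The peak mitochondrion_genome:1342-6143, which covers the cytochrome oxidase genes COX1, COX2 and COX3 and the ATP synthase genes ATP6 and ATP8, had 4269, 6756 and 13596 in Or47b, 5169, 7095 and 15554 in Or67d, 5713, 8607 and 11501 in fru and 6603, 8306 and 11079 in dsx brains, against 2530, 3545 and 5447 in CS brains. The change was 0.94 ± 0.25 in Or47b (limma adjusted p = 0.11, not called), 1.05 in Or67d (limma adjusted p = 0.027), 1.14 in fru (limma adjusted p = 0.013) and 1.17 in dsx brains (limma adjusted p = 0.0073). All fru and dsx libraries lay above all CS libraries, and those of Or47b and Or67d overlapped them. Of the 4 peaks, limma called 0 in Or47b, 3 in Or67d, 4 in fru and 4 in dsx brains. Over all RNAPolII peaks the shares called were 0.56%, 1.08%, 1.04% and 1.84%. When the 30 libraries were left out in turn, the call at mitochondrion_genome:1342-6143 was lost 6 times in Or67d and 2 times in fru brains (without CS GH 1 or fru GH 3), and that at 10539-14574 was lost 23 times in Or67d, 8 times in fru and 1 time in dsx brains (without dsx SH 3). The call at 7062-7555 was lost 13 times in fru brains. With edgeR on recovered reads, the Or67d calls at 1342-6143 and 10539-14574 and the fru calls at 10539-14574 and 7062-7555 were lost too. That fit left out CS SH 2 and Or67d SH 3. The 3 libraries that stood apart had mitochondrial sums of 28004 (Or67d GH 3), 23759 (Or47b SH 3) and 19587 (Or47b GH 3), and the highest of any other library was 19603. Without them the change was 0.54 in Or47b (limma adjusted p = 0.067), 0.85 in Or67d (limma adjusted p = 4.92e-05), 1.14 in fru (limma adjusted p = 1.74e-08) and 1.17 in dsx brains (limma adjusted p = 4.06e-09). Mitochondrial reads made up a median of 0.313% of the signal in Or47b, 0.330% in Or67d, 0.398% in fru and 0.395% in dsx brains, against 0.168% in CS brains. This DNA has no histones, and its signal in an H3K4me3 library was lower but not 0. The sums were 367.8 to 780.7 in Or47b, 536.7 to 992.1 in Or67d, 570.8 to 1580 in fru and 534.6 to 1119 in dsx brains, against 376.5 to 1218 in CS brains. Of its 3 H3K4me3 peaks, limma called 0 in Or47b, 1 in Or67d, 2 in fru and 0 in dsx brains. Over all H3K4me3 peaks the shares called were 0.806%, 30%, 2.2% and 5.4%. Each of these mitochondrial H3K4me3 calls was higher than CS and was lost with TMM scaling and with edgeR on recovered reads. The edgeR fit left out CS GH 2, and each call was lost in limma too when only that library was left out.

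**Figure D5:**
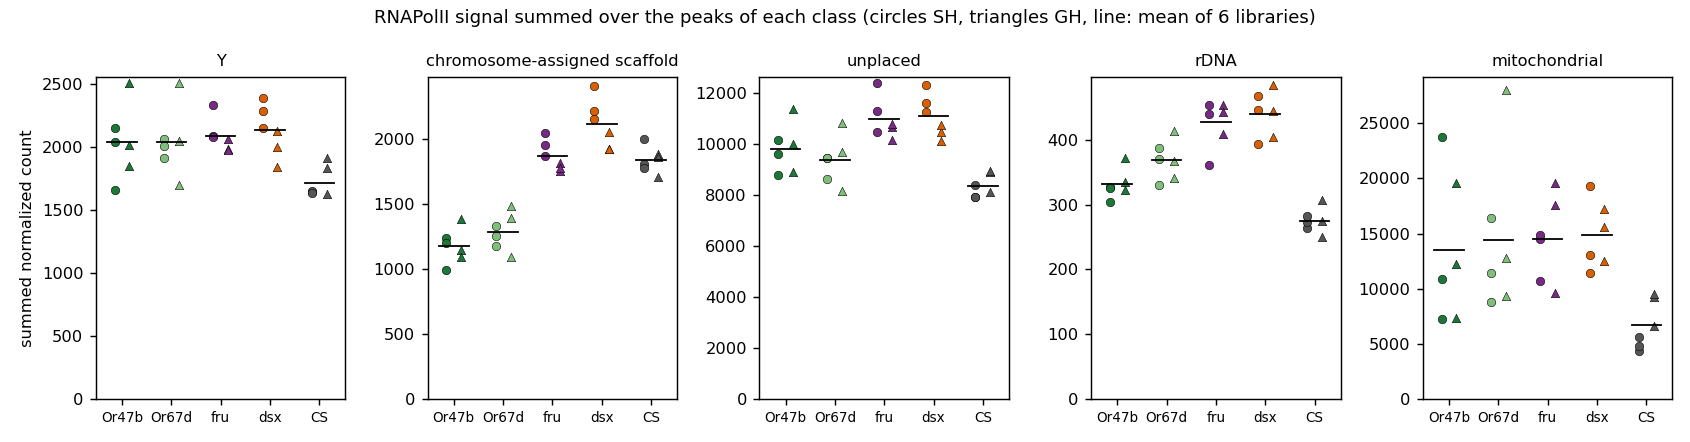
RNAPolII normalized counts summed over the peaks of each class (y axis, 1 panel per class) in each library by genotype (x axis), with SH as circles, GH as triangles and the mean of 6 libraries as a line. The sums on chromosome-assigned scaffolds have Or47b and Or67d lowest, at 989.9 to 1483, although the median change of the 34 peaks was above 0 (0.23 and 0.18), and in the other classes CS has the lowest median.

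Summed over the 67 Y peaks, RNAPolII was 1655, 2025 and 2507 in Or47b, 1693, 2023 and 2503 in Or67d, 1970, 2070 and 2330 in fru and 1838, 2134 and 2386 in dsx brains, against 1623, 1644 and 1908 in CS brains, and the fru libraries alone lay wholly above those of CS. Over the 235 unplaced peaks the sums were 10180 to 12420 in fru and 10140 to 12320 in dsx brains, against 7924 to 8942 in CS brains, with no overlap. Those of Or47b (8805 to 11390) and Or67d (8179 to 10820) overlapped CS. With H3K4me3 the sums of the 7 peaks on chromosome-assigned scaffolds were 539 to 573.6 in Or47b and 804.5 to 1000 in Or67d brains, against 1246 to 1659 in CS brains. Most of that signal came from Y_mapped_Scaffold_18_D1698, at 11282-12198 (mean 690.3) and 26019-28220 (mean 298.6). Most of the 7 peaks lay on it as well, so these sums largely describe 1 scaffold. The sums of the 4 Y peaks were 44.03 to 64.11 in Or67d, against 80.34 to 122.8 in CS brains.

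No peak of the set was called for housing in the fit without a term for the replicate number. The comparisons were SH minus GH within each of the 5 genotypes, over all genotypes and in the difference of the housing effect among genotypes. In each, limma in that fit called 0 with either antibody. With fewer libraries, edgeR on recovered reads also called 0. Over all peaks limma called none in these comparisons other than H3K4me3 in Or47b brains (0.0345%). At an unadjusted p under 0.05, limma had 23 RNAPolII peaks in Or47b (6.61%, against 3.27% of all peaks), 13 in Or67d (3.74%, against 3.05%), 21 in fru (6.03%, against 3.54%), 26 in dsx (7.47%, against 4.2%) and 23 in CS brains (6.61%, against 3.47%). Over all genotypes it had 15 (4.31%, against 3.31%), and in the difference of the housing effect 22 (6.32%, against 2.89%). With H3K4me3 it had 15 in Or47b (28.8%, against 26.3%), 2 in Or67d (3.85%, against 3.89%), 3 in fru (5.77%, against 3.65%), 1 in dsx (1.92%, against 2.36%) and 0 in CS brains (against 2.57%). Over all genotypes it had 4 (7.69%, against 5.82%), and in the difference of the housing effect 5 (9.62%, against 7.3%). The lowest adjusted p was 0.0862, for H3K4me3 in Or47b brains. The mitochondrial RNAPolII sums of CS did not overlap by housing, with 4293, 4802 and 5621 in SH and 6650, 9283 and 9511 in GH brains, but the 4 peaks, at -0.83 to -0.71, had a limma adjusted p of 0.9997. In Or47b brains the same 4 changes were 0.00 to 0.08.

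By the likeness of the 10 group means (log2 of the value plus 1), the kl-5 peak Y:88808-93734 was most like a 2R peak over CG13579, CG3492, CG3494 and CG16837 (Pearson r = 0.947) and the Y peak Y:2109680-2110008 (0.944). The strongest H3K4me3 peak, 211000022280687:1-2436, was most like 211000022278716:1315-1536 (0.972), another unplaced scaffold. That peak had log2 changes of -1.72 in dsx, -0.88 in fru and -0.59 in Or67d brains, all called, and of -0.08 in Or47b brains. For the H3K4me3 peak Y:3017770-3018782 it was Wnt4 (0.983), which encodes a Wnt ligand. Each is the highest r of all tested peaks over 10 points that share libraries, and describes only this table.

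RNAPolII over genes whose products act on such sequences was seldom called, as over all peaks (0.56% in Or47b, 1.08% in Or67d, 1.04% in fru and 1.84% in dsx brains). Of 21 peaks over heterochromatin factor genes, such as HP1b, HP1c and the histone methyltransferase gene egg, 0 were called in any of the 4 mutants by limma, nor were any of 18 over genes of the piRNA pathway or 22 over testis germline genes. Of 16 over genes for RNA polymerase I and the nucleolus, CTCF, the gene of an insulator protein, was lower in Or67d (-0.66) and dsx brains (-0.58), and Polr1B, which encodes a polymerase I subunit, in dsx brains (-0.36). With H3K4me3, Or67d brains had 20 of 24 heterochromatin peaks and 8 of 17 piRNA peaks higher, where 17.5% of all peaks were higher. Genes of RNA polymerase I and the nucleolus had 7 of 16 peaks higher and 1 lower there, and neuronal markers 3 of 9 higher. The 24 heterochromatin peaks were strong, with a median sum of 33280 normalized counts per library, and peak strength was not matched in these shares. Whether strong peaks rose in general was not tested. Of the 24 heterochromatin peaks, 0 were called in Or47b, 0 in fru and 1 in dsx brains (HP1c, 0.28). The shares over all peaks were 0.806%, 2.2% and 5.4%. Of 11 H3K4me3 peaks over testis germline genes, 1 was higher in Or47b and 1 in fru brains, against 0.427% and 1.26% of all peaks. In Or67d brains 3 were higher and 3 lower, against 17.5% and 12.5%. In dsx brains 2 were higher and 1 lower, against 3.42% and 1.98%. CTCF was lower with H3K4me3 too, in Or47b (-0.32), Or67d (-0.36) and dsx brains (-0.50). Among piRNA genes, del, which encodes a partner of the heterochromatin protein Rhino, was higher in Or47b (0.70) and fru brains (0.71), and spn-E, which encodes a helicase, in Or47b (0.40) and dsx brains (0.40).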

How the data were processed

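Per the submitters' processing notes, ChIPseeker, DESeq2, MACS2, Bowtie2 and Trim Galore were used, without versions. No source used here gives the read counter or the genome build. As deposited, the signal of a peak is its read count after the authors scaled each library by 1 size factor, on 1 peak set per antibody: 100% of values were whole multiples of 1 read to within 0.01 reads. This step was unsure in 4 H3K4me3 and 2 RNAPolII libraries.

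Columns were joined to samples by library name. Peaks with a mean of at least 10 over the 30 libraries were tested (14513 of 14894 with H3K4me3, 21076 of 21113 with RNAPolII). Log2 of the value plus 1 was fitted by group (10 means) with lmFit and a trended eBayes of limma 3.58.1, under R 4.3.3, in 12 comparisons per antibody, with two-sided p-values adjusted within each by Benjamini-Hochberg; an SE is the fit's, and an adjusted p is from limma throughout. Fold changes understate low peaks. The fits were tested on simulated data. Replicates are labelled biological. Alternatives were another pseudocount, no filter, quantile and TMM scaling, edgeR 4.0.16 on recovered reads, a replicate term, a term for how far strong and weak peaks lay apart, and leaving out libraries. Tables and figures used Python 3.11.15 with pandas 2.3.3, numpy 2.4.6 and matplotlib 3.10.9.

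Genes were named by overlap with the RefSeq table of Release 6 plus ISO1 MT, used for names only. That table fits the deposited H3K4me3 positions: 83.1% of strong peaks lay over a gene end, against 30.4% after a shift by 50000 bp. With RNAPolII these shares were 54.7% and 50.9%, which hardly differ. No such share was taken for the Y, rDNA or mitochondrial peaks alone, so the gene names on them were not tested. No sequences were used here. The peaks and gene lists were chosen with earlier results of these data known, so no pattern serves as independent evidence. Named peaks were the 3 strongest per class, up to 3 per direction and comparison with the largest called change and no overlap of libraries, those next to the limit and those over listed Y genes. Others, and the grouping of both receptor mutants, were chosen after their values were seen: among them the peaks of Su(Ste), of 211000022279810, 211000022280492, 211000022280095, 211000022279266 and 211000022279901, of XY_mapped_Scaffold_7_D1574 and most Y peaks with no gene.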

Additional observations from a re-analysis of the deposited data

Results flagged for a closer look

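In 3 of the 50 groups of 6 libraries in which the summed signal of a class was looked at, 1 library lay far from the other 5 of its genotype. Chance gives about 1 in 20. The H3K4me3 sum over the mitochondrial peaks was 780.699 in Or47b SH 2, and it was 1118.72 in dsx GH 1. The RNAPolII sum over the Y peaks was 2330.39 in fru SH 1. Each was the highest of its 6.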

How the results depend on the processing

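Counts of called peaks stayed within 1.5 times under every alternative run in 9 of 12 H3K4me3 and 11 of 12 RNAPolII comparisons. With H3K4me3, the 29 calls in Or67d brains became 18 (3 higher and 15 lower) with quantile scaling and 16 (4 and 12) with the term for spread. Those in dsx brains ranged over 10 to 22 when 1 library was left out, with 10 without CS SH 2 and 22 (6 higher and 16 lower) without CS GH 3. SH minus GH in Or47b brains had 9 H3K4me3 calls (2 higher and 7 lower) with the replicate block and 0 to 3 when 1 library was left out (3 without fru SH 3, 2 without Or47b SH 1). Quantile scaling gave 1 RNAPolII call in SH minus GH in CS. With no filter on low values, H3K4me3 sums became 94.3941 for the Y in dsx, 130.678 for the Y in CS and 3435.2 for unplaced scaffolds in fru brains.

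Leaving out 1 library gave 16 to 20 H3K4me3 calls in Or47b, 21 to 31 in Or67d and 9 to 14 in fru brains, and 49 to 63, 59 to 79, 46 to 59 and 56 to 74 RNAPolII calls in Or47b, Or67d, fru and dsx brains. With fewer libraries, edgeR called 52, 62, 53 and 64 with RNAPolII and 19, 20, 8 and 12 with H3K4me3. Of the calls on named peaks, 34 of 46 with H3K4me3 and 46 of 57 with RNAPolII held under every setting, and 0 changed sign. The mitochondrial calls were among those lost. Quantile scaling sets the strongest RNAPolII peak, mitochondrion_genome:1342-6143, to 1 value in all libraries by its construction. The causes of the other moves were not tested.

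Libraries of the same replicate number deviated together in part, as a hint from the data and not from the design: the correlation of their deviations averaged 0.0853, against -0.0426 for different numbers, with H3K4me3, and 0.0212, against -0.0103, with RNAPolII. Not every pair did, so the numbers were not taken to pair the samples: the correlations of same-numbered libraries ran from -0.0976 to 0.453 with H3K4me3, where 22 of 30 libraries correlated best with one of their own number, and from -0.234 to 0.535 with RNAPolII, where 13 of 30 did. With the replicate block, RNAPolII calls were 62, 77, 59 and 71 and H3K4me3 calls 22, 31, 15 and 20 in Or47b, Or67d, fru and dsx brains. Many of these peaks hold few reads, and a peak just over a mean of 10 can show only large changes at this depth.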
